A study of Bos taurus with 9 samples.

Results

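The genes described here defend cells against reactive oxygen and reactive compounds, and their transcripts were followed under salt stress in nucleus pulposus cells, taken from the gel-like centre of bovine intervertebral discs. They comprise the superoxide dismutases, catalase, glutathione peroxidases, peroxiredoxins, thioredoxin and glutaredoxin families, glutathione synthesis and transferase enzymes, haem oxygenases, ferritin, metallothioneins, methionine sulfoxide reductases, and the regulator NRF2 with its repressor KEAP1. Members were chosen by gene symbol, as all names beginning with the family stems of glutathione transferases, glutathione peroxidases, peroxiredoxins, thioredoxins and glutaredoxins together with 38 listed genes, TXNDC5 left out. They had to have a probe set annotated to that symbol alone, and the brightest such probe set of a gene stood for it. The rule found 55 genes with 72 probe sets, of 9155 genes with a single-gene probe set on the array, and of the listed names TXNIP and GSTP1 were not analysed here under those symbols. All 55 passed the filter on low values, the lowest 25% of probe sets having been left out.

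Cells from caudal discs of young calves were plated in DMEM with 10% FBS, which all groups share. The control group was untreated cells, with no time given in the labels. The other groups received salt to 500 mOsm/kg for 5 h and for 24 h. Each group had 3 arrays, numbered as biological replicates 1 to 3; whether each came from its own animal is not stated, and p-values then cover only the spread from culture to culture, which may be in part technical. The same 3 control arrays serve both times, and with no time of their own they leave time in culture and time in salt confounded, which cannot be told apart. The comparisons ask which transcripts changed at each time and between the times.

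Cells remove superoxide in steps. Superoxide dismutases turn it into hydrogen peroxide, which catalase splits into water and oxygen and which glutathione peroxidases and peroxiredoxins reduce to water. Glutathione and thioredoxin return the peroxidases and peroxiredoxins to their active form, at the cost of NADPH. Glutathione transferases attach glutathione to reactive organic compounds, haem oxygenase and ferritin limit free haem and iron, and the transcription factor NRF2, encoded by NFE2L2 and held in check by KEAP1, drives many of these genes. In the disc, which has few blood vessels and a high and changing osmolality, oxidative damage is studied in relation to matrix loss with age.

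Values are PLIER intensities on a linear scale. Changes are differences of log2(intensity + 16) ± SE from 1 limma fit over the 18012 probe sets tested, with adjusted p by Benjamini-Hochberg over all of them and a call at adjusted p under 0.05. The pseudocount understates changes of dim probe sets, and levels of different probe sets are not compared. Where 3 values are given for a group they are in the order of replicates 1, 2 and 3. In this bulk material, fewer cells of a type and less RNA per cell cannot be told apart.

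The array medians lay between 67.1 and 84.5. Arrays numbered 3 stood apart from the others in every group, also in the manufacturer's BioB hybridisation probe sets, which read 224 to 253 on these 3 arrays and 330.1 to 419 on the other 6. Deviations of same-numbered arrays from their group means correlated at 0.56 to 0.90 across probe sets. Between numbers 1 and 2 these correlations were 0.31 to 0.54, and between number 3 and the others -0.78 to -0.52. The replicate number was also fitted as a block. For members, the adjusted p with the block is given where it changes a call against control. As a measure of intact RNA, the 3-prime probe set of actin exceeded its 5-prime one, on the log2 scale, by 2.51 to 2.86 in control, 2.37 to 2.90 at 5 h and 2.83 to 3.31 at 24 h. For EIF4E the excess was 2.18 to 2.97, 2.09 to 2.80 and 2.53 to 3.04. For GAPDH the difference was small, at -0.18 to 0.0056, -0.029 to 0.057 and 0.012 to 0.043. Of 14 markers of nucleus pulposus cells 7 had a probe set, and 3 of the 7 were below the filter. The summed intensity of the 7 was 2636.5 to 3948 in control, 3141 to 3363 at 5 h and 3318 to 5382 at 24 h. Of the 4 tested, 0 were called at 24 h without the block, and 1 was called higher with it (background 18.3% higher). The median log2 change of these 4 at 24 h was -0.20. ACAN, the disc's main proteoglycan, read 1261 in control, COL2A1 182, and the keratins KRT8 and KRT19 18.5 and 5.2, below the filter; SOX9 and TBXT were not analysed here. The part of array number, RNA integrity and cell makeup in the results below was not tested.

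After 5 h in salt, none of the 55 members was called by limma (background called: 0.483% of all probe sets and 0.442% of the brightest probe sets of all genes). In 3 members the unadjusted limma p was under 0.05, and the share of all probe sets at that threshold was not computed. With the replicate block 2 were called, both lower, GPX7 and HMOX1 (background with the block: 5.86% called, 2.45% higher and 3.41% lower, and 5.31% of the brightest probe sets). All 3 arrays lay above all controls in GLRX5 (background 4.04%) and below them in GSTT1 and SRXN1 (background 6.6%). The median log2 change of the members was -0.038, beside -0.030 over all probe sets tested, and their single changes ran from -1.37 (HMOX1) to 0.47 (GLRX5). After 24 h, 9 of 55 were called, 16.4% of the members, beside a background of 8.61% of all probe sets and 10.8% of the brightest probe sets of all genes. Of these, 4 rose (SOD2, GPX1, GSTM3 and CAT, background 4.28%) and 5 fell (GLRX2, GLRX3, TXNDC17, GSTK1 and PRDX1, background 4.32%). With the block, 14 rose and 13 fell, 27 of 55 against a background of 35.8% of all and 40% of the brightest probe sets (18.3% higher, 17.5% lower over all). The 24 h arrays lay above all controls in 7 members (background 13.9%) and below them in 11 (background 13.5%). The median change at 24 h was 0.013, beside 0.023 over all probe sets: the members moved in both directions, with a median size of 0.32 beside 0.26 over all. Without the 3 arrays numbered 3, an alternative chosen after seeing the data, 5 of 55 were called in place of 9, beside 9.24% of all probe sets. The count was 1 without control replicate 2 or 24 h replicate 1 (1.72% and 1.69% of all probe sets), and 2 without control replicate 3 (2.55%). It was 3 without 5 h replicate 1, 24 h replicate 2 or 24 h replicate 3 (4.99%, 4.26% and 5%), so calls over all probe sets dropped in these refits too.

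**Figure D1:**
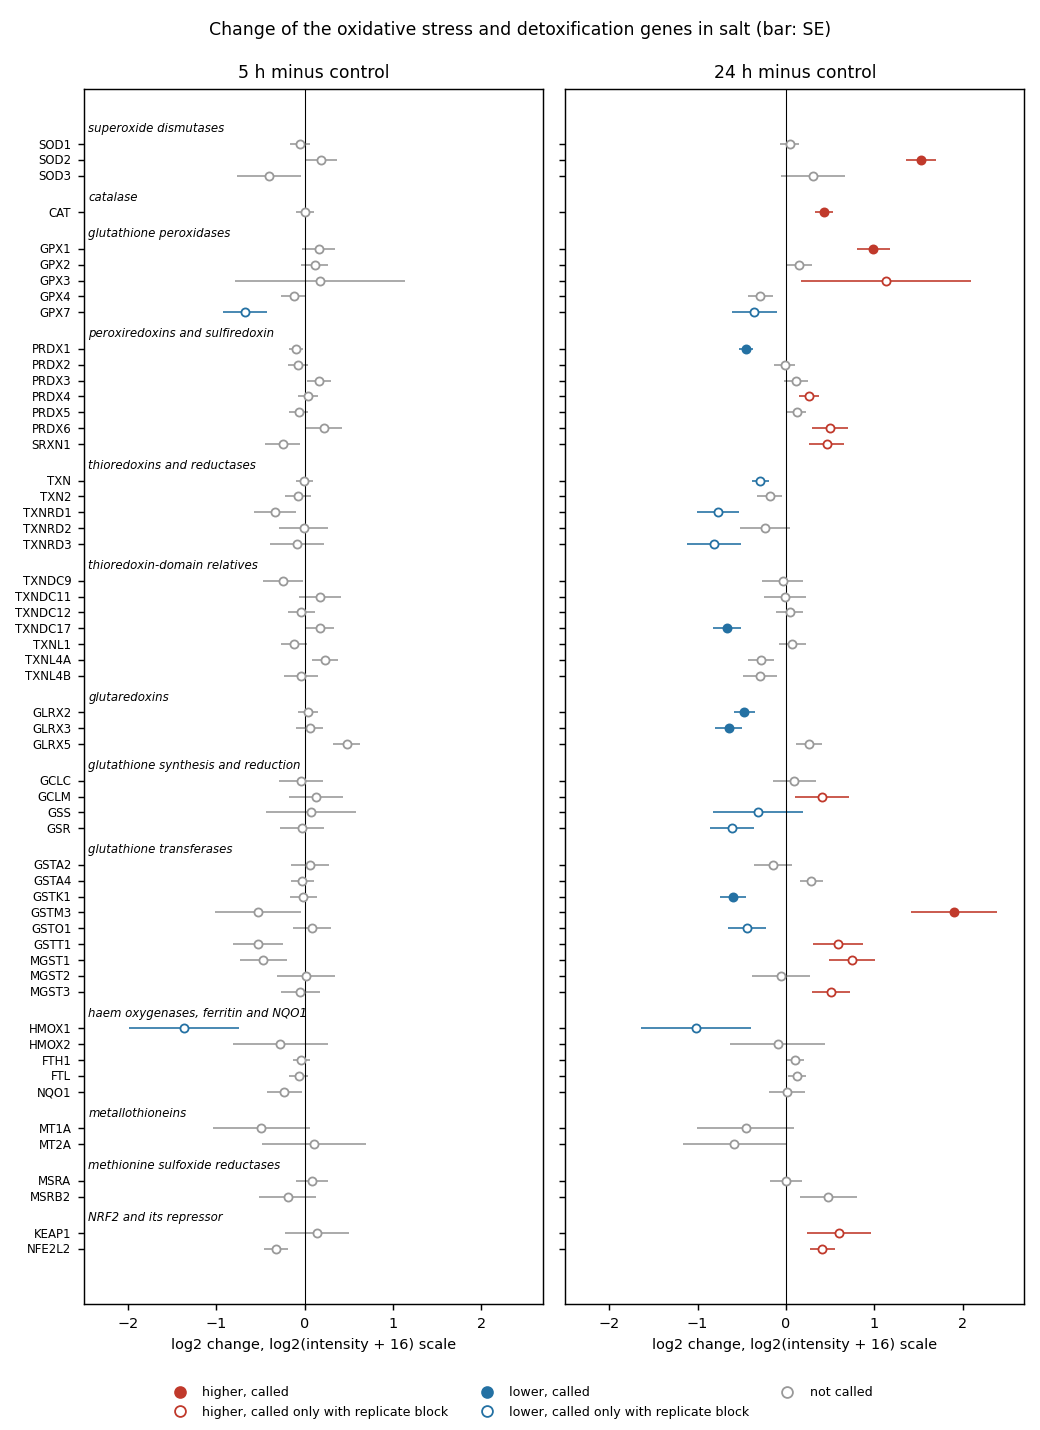
Log2 change (points, with SE bars) of each of the 55 members by role, at 5 h and at 24 h of salt against the same 3 control arrays; filled points were called by limma and open coloured points only with the replicate block. At 5 h no point is filled, and at 24 h 4 higher and 5 lower members are, with GSTM3 and SOD2 farthest to the right.

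SOD2, the manganese superoxide dismutase of the mitochondrial matrix, rose at 24 h on all arrays. Its intensities were 612, 633 and 778 in control, 786, 794 and 718 at 5 h and 1865, 1642 and 2478 at 24 h. The control and 5 h arrays overlapped, and every 24 h array lay far above both. The change was 1.53 ± 0.17 at 24 h (adjusted p = 0.0039) and 0.19 ± 0.17 at 5 h (adjusted p = 0.9998). No single array left out ended the call at 24 h (adjusted p at most 0.025).

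The 2 other superoxide dismutases were not called. SOD1, the abundant copper-zinc enzyme of the cytosol, read 6257, 5319.9 and 6148 in control, 5578, 5144 and 6378 at 5 h and 6210.0, 5537 and 6482 at 24 h. Its groups overlapped throughout, with changes of -0.054 ± 0.11 and 0.041 ± 0.11 (adjusted p = 0.9998 and 0.91). SOD3, the secreted form that binds to the extracellular matrix, read 305, 129 and 104 in control, 142, 125 and 92.4 at 5 h and 266, 196 and 161 at 24 h. Control replicate 1 was higher than all the other arrays of SOD3, and the change at 24 h was 0.31 ± 0.37 (adjusted p = 0.72). From 5 h to 24 h the SOD3 groups did not overlap, and this difference was 0.71 ± 0.37 (adjusted p = 0.24, 0.011 with the block). A second SOD3 probe set was dim, at 22.9 in control.

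Catalase, CAT, which breaks down hydrogen peroxide in peroxisomes, rose by a small amount at 24 h. Its intensities were 1550.1, 1559 and 1469.7 in control, 1575, 1519 and 1484 at 5 h and 1995, 2229 and 1975 at 24 h. The control and 5 h arrays were almost level, and the 24 h arrays stood clear of both, by 0.43 ± 0.10 (adjusted p = 0.033). At 5 h the change was -8.8e-05 ± 0.10. The call ended in 7 of the 9 refits without 1 array, all but those without 5 h replicate 2 or 3 (adjusted p up to 0.11).

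GPX1, the selenium-containing glutathione peroxidase of cytosol and mitochondria, rose at 24 h. It read 3597, 2566 and 3664 in control, 3688, 2991 and 4262 at 5 h and 6784, 5390.5 and 7306 at 24 h. Each 24 h array was above all control and 5 h arrays, and the rise was 0.99 ± 0.19 (adjusted p = 0.018). The call ended without control replicate 2 or 24 h replicate 1 (adjusted p up to 0.073). A second GPX1 probe set, with a mean of 28.0 in control, had a change of -0.060 at 24 h, and the mean of both was not called (adjusted p = 0.71). On that dim probe set the arrays numbered 3 read 71.7, 79.2 and 113.6 in control, at 5 h and at 24 h, and the other 6 arrays 7.1 or less.

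The other glutathione peroxidases were not called without the block. GPX4, which reduces lipid hydroperoxides in membranes, read 4372, 5021 and 4178 in control, 3847, 5029 and 3667 at 5 h and 4059, 3299 and 3747 at 24 h. All 24 h values lay below the control values, with a change of -0.29 ± 0.14 (adjusted p = 0.27). GPX3, the secreted plasma form, read 184, 220.1 and 24.7 in control, 198, 316 and 22.7 at 5 h and 464, 371 and 92.4 at 24 h. Arrays numbered 3 were far below the rest in every group, and within each number the 24 h value was the highest. The change of GPX3 at 24 h was 1.13 ± 0.96 (adjusted p = 0.57, 0.0024 with the block, and 0.045 without the 3 arrays numbered 3).

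GPX7, a peroxidase of the endoplasmic reticulum, was lower at 5 h within each replicate number, although the groups overlapped. It read 917, 523 and 733 in control, 564, 340.4 and 427 at 5 h and 652, 494 and 511 at 24 h. The change was -0.68 ± 0.25 at 5 h (adjusted p = 0.50, 0.0075 with the block) and -0.36 ± 0.25 at 24 h (adjusted p = 0.47, 0.032 with the block). GPX2, the gut-type enzyme, was dim at 29 ± 6.29 in control and 33.7 ± 3.4 at 24 h (SD, n = 3).

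PRDX1, a cytosolic peroxiredoxin, fell at 24 h. Its intensities were 11806, 12362 and 11844 in control, 10123, 12000.5 and 11570.5 at 5 h and 8646, 8402 and 9287 at 24 h. The 24 h arrays lay below all others, with a fall by 0.45 ± 0.079 (adjusted p = 0.014). The highest intensity of any probe set was 13522 to 15435 per array, and PRDX1 stood near this top of the range. The call ended without control replicate 2, control replicate 3 or 24 h replicate 1 (adjusted p up to 0.063).

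On their brightest probe sets the other 5 peroxiredoxins were not called lower at 24 h, with or without the block. PRDX2, also cytosolic, read 4984, 4727 and 4120.4 in control, 4644, 4536 and 3943 at 5 h and 5076, 4529 and 4096 at 24 h. Arrays numbered 3 were the lowest of each group, and the change at 24 h was -0.015 ± 0.12 (adjusted p = 0.98). PRDX4, of the endoplasmic reticulum, read 3702, 3642 and 4229 in control, 3960.0, 3685 and 4217 at 5 h and 4742, 4038 and 5138 at 24 h. It stood at 0.26 ± 0.11 at 24 h (adjusted p = 0.21, 0.016 with the block). PRDX5, found in mitochondria and peroxisomes, read 2487, 2279.5 and 2264 in control, 2275, 2341 and 2077 at 5 h and 2757, 2341 and 2555 at 24 h. Both salt groups of PRDX5 overlapped control, with 0.12 ± 0.10 at 24 h (adjusted p = 0.58). The lowest 24 h value, 2341.4, was barely above the highest 5 h value, 2341.

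PRDX3 and PRDX6 have several probe sets that differed. PRDX3, the mitochondrial peroxiredoxin, read 1910.1, 2728 and 2392 in control, 2435, 2736 and 2620.3 at 5 h and 2403, 2592 and 2543 at 24 h on the brightest, with 0.11 ± 0.13 at 24 h (adjusted p = 0.71). A second PRDX3 probe set, at 787 in control and 518 at 24 h, was called lower, at -0.58 (adjusted p = 0.038). PRDX6, which also acts on phospholipids, read 1834, 1939 and 2487 in control, 2136, 2216 and 2939 at 5 h and 2759, 2385 and 3801 at 24 h on the brightest, with 0.50 ± 0.20 at 24 h (adjusted p = 0.18, 0.0019 with the block). The second PRDX6 probe set, at 1382 in control, 1742 at 5 h and 2532 at 24 h, was called higher, at 0.87 (adjusted p = 0.0054). Another, at 155 in control, pointed the other way at -0.46 (adjusted p = 0.18, 0.041 with the block). The sign of the change thus differed between probe sets of PRDX3 and of PRDX6.

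SRXN1, sulfiredoxin, which repairs overoxidised peroxiredoxins, was lowest at 5 h. Its intensities were 291, 284 and 327 in control, 252, 259 and 239.7 at 5 h and 310.2, 522 and 456 at 24 h. All 5 h values lay below all control values, at -0.25 ± 0.20 (adjusted p = 0.9998), and all 24 h values lay above the 5 h values. The change at 24 h against control was 0.46 ± 0.20 (adjusted p = 0.20, 0.041 with the block), with 24 h replicate 1 the lowest of its group.

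None of the 5 thioredoxins and thioredoxin reductases was called at 24 h without the block. TXN, cytosolic thioredoxin, which passes electrons to peroxiredoxins, read 7786, 7111 and 8409 in control, 7413, 7409 and 8397 at 5 h and 6565, 5737 and 6757 at 24 h. Every 24 h value was below every other, at -0.29 ± 0.10 (adjusted p = 0.11, 0.0054 with the block). TXNRD1, the reductase that recharges it from NADPH, read 3769, 4629 and 3199 in control, 2723, 4453 and 2286 at 5 h and 2189.7, 2407 and 2118 at 24 h. At 5 h TXNRD1 was low on the arrays numbered 1 and 3 and near control on number 2, and at 24 h all 3 arrays were close together and below control. Its change was -0.33 ± 0.23 at 5 h (adjusted p = 0.9998) and -0.77 ± 0.23 at 24 h (adjusted p = 0.080, 0.0015 with the block). The 24 h value was called without 5 h replicate 2 (adjusted p = 0.026), with arrays centred on their median (0.042) and fitted to the 6 arrays compared (0.044).

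The mitochondrial pair was not called, with or without the block. TXN2, the mitochondrial thioredoxin, read 974, 952 and 812 in control, 844, 963 and 784 at 5 h and 890.5, 797 and 716 at 24 h. It overlapped in all groups, with -0.19 ± 0.14 at 24 h (adjusted p = 0.53). TXNRD2, its reductase, was dim, at 74.1 ± 18.1 in control and 61.5 ± 21.1 at 24 h (SD, n = 3; adjusted p = 0.71). TXNRD3, a thioredoxin and glutathione reductase known from testis, was dimmer still, from 27 ± 11.1 in control to 8 ± 3.21 at 24 h. Its change of -0.81 ± 0.31 (adjusted p = 0.14, 0.0026 with the block, and 0.035 without the 3 arrays numbered 3) is understated near this floor. All 5 genes of the group had a log2 change below 0 at 24 h, beside a median change of 0.023 over all probe sets. With the block 3 of the 5 were called lower (background 17.5% lower), and without it 0.

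Of 7 relatives with a thioredoxin fold, TXNDC17 fell at 24 h. TXNDC17, a small cytosolic disulfide reductase, read 2303, 3326 and 2616 in control, 3030.5, 3469 and 2735 at 5 h and 1865, 1758 and 1519.8 at 24 h. Each 24 h array was below all others, a fall by 0.66 ± 0.16 (adjusted p = 0.037). The call ended in 6 of the 9 refits, without control replicate 2 or 3, 5 h replicate 1 or any 24 h array (adjusted p up to 0.12). TXNL4A, a small protein of the spliceosome, read 717, 789 and 889 in control, 1069.8, 912 and 837 at 5 h and 654, 604 and 701 at 24 h. It stood at 0.23 ± 0.15 at 5 h and -0.28 ± 0.15 at 24 h (adjusted p = 0.98 and 0.30), and is described again under the change between the times. The other 5, TXNDC9, TXNDC11, TXNDC12, TXNL1 and TXNL4B, ranged from -0.25 to 0.17 at 5 h and from -0.30 to 0.071 at 24 h, and none was called in any comparison, with or without the block.

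The glutaredoxins, which use glutathione to reduce protein disulfides, divided. GLRX2, of mitochondria and nucleus, read 1261, 1505 and 1410.4 in control, 1467, 1494 and 1323 at 5 h and 1027, 957 and 1012 at 24 h. It fell by 0.47 ± 0.12 at 24 h (adjusted p = 0.041), with all 24 h arrays within a narrow range below the rest. GLRX3, a cytosolic iron-sulfur carrier, read 1398, 1295 and 1452 in control, 1593, 1407 and 1322 at 5 h and 992, 708 and 948 at 24 h and fell by 0.65 ± 0.15 (adjusted p = 0.035). GLRX5, a mitochondrial iron-sulfur carrier, was highest at 5 h, at 688, 782 and 888 in control, 1152, 976 and 1158 at 5 h and 850.5, 1064 and 915 at 24 h. Its 5 h arrays lay above all control arrays, at 0.47 ± 0.15 (adjusted p = 0.35, 0.055 with the block).

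The falls of GLRX2 and GLRX3 each ended in 7 of the 9 refits without 1 array. For GLRX2 the exceptions were the refits without control replicate 1 or 5 h replicate 2 (adjusted p up to 0.15), and for GLRX3 those without 5 h replicate 2 or 3 (adjusted p up to 0.11). A second GLRX3 probe set, at 19.7 in control and near the floor, stood at 0.26 at 24 h (adjusted p = 0.43), and the mean of both probe sets was not called (adjusted p = 0.54).

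Of the 4 enzymes that make and recharge glutathione, none was called without the block. GCLC, the catalytic subunit of the rate-limiting ligase, was dim and uneven, at 37.4, 45.7 and 59.5 in control, 33.3, 64 and 41.5 at 5 h and 53, 36.9 and 67.1 at 24 h. Its groups overlapped at both times (adjusted p = 0.9998 and 0.90). GCLM, the ligase's modifier subunit, read 451, 502 and 285 in control, 401, 592 and 361 at 5 h and 459, 794 and 429.8 at 24 h. Within each number GCLM was higher at 24 h than in control, by little on number 1, with 0.41 ± 0.31 (adjusted p = 0.50, 0.036 with the block).

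GSR, which reduces oxidised glutathione with NADPH, was lower at 24 h on every array than in any control, at 391, 555 and 454 in control, 453, 615 and 333 at 5 h and 257, 369 and 273 at 24 h. The change was -0.62 ± 0.25 (adjusted p = 0.17, 0.0065 with the block). GSS, glutathione synthetase, differed mostly between array numbers, with 194 ± 94.9 in control and 151 ± 70.1 at 24 h (SD, n = 3) and a change of -0.32 ± 0.51 (adjusted p = 0.81, 0.042 with the block).

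Glutathione transferases moved in both directions at 24 h: of 9 members GSTM3 rose and GSTK1 fell, and with the block 4 rose and 2 fell. GSTM3, a transferase of the mu class, read 94.2, 14.5 and 10.1 in control, 13.6, 10.9 and 20.7 at 5 h and 202, 113 and 146 at 24 h. All 5 h arrays and 2 of the 3 control arrays were near the floor, while control replicate 1 reached 94.2, closer to the 24 h arrays. The rise at 24 h was 1.90 ± 0.49 (adjusted p = 0.048), and the probes may also read other mu-class genes. This call ended in 8 of the 9 refits, all but that without control replicate 1 (adjusted p up to 0.17).

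Control replicate 1 was likewise the highest control array of GSTT1 and MGST1. GSTT1, a theta-class transferase, read 352, 162 and 185 in control, 149, 150.4 and 143 at 5 h and 404, 267 and 359 at 24 h. It was lower at 5 h than in all controls, at -0.53 ± 0.28 (adjusted p = 0.85), and stood at 0.59 ± 0.28 at 24 h (adjusted p = 0.25, 0.035 with the block). Without control replicate 1 the 24 h change of GSTT1 was 0.91 and called (adjusted p = 0.043). MGST1, a membrane-bound transferase of endoplasmic reticulum and mitochondria, read 338, 186 and 252 in control, 171, 141 and 229 at 5 h and 506, 345 and 462 at 24 h. All 24 h arrays lay above all controls, at 0.74 ± 0.26 (adjusted p = 0.12, 0.0040 with the block).

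MGST3, which has transferase and peroxidase activity, was raised within each number at 24 h, from 1549 ± 331 to 2204 ± 398 (SD, n = 3), at 0.51 ± 0.22 (adjusted p = 0.20, 0.00096 with the block). MGST2, its relative, was at -0.055 ± 0.33 (adjusted p = 0.97). GSTA4, which conjugates lipid aldehydes, was above all controls on each 24 h array, at 1203 ± 139 against 979.9 ± 42.3, with 0.29 ± 0.13 (adjusted p = 0.23). GSTA2 stood at -0.14 ± 0.21 (adjusted p = 0.79), and 3 of its 5 probe sets were below the filter.

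GSTK1, a transferase of mitochondria and peroxisomes, read 596, 618 and 679 in control, 641, 594 and 636 at 5 h and 423, 346 and 471 at 24 h on its brightest probe set and fell there by 0.60 ± 0.15 (adjusted p = 0.042). The second probe set also pointed down, at -0.36 (adjusted p = 0.25, 0.048 with the block). The third, at 78.5 in control, 31.3 at 5 h and 136 at 24 h, pointed up, at 0.67 (adjusted p = 0.30). The direction of GSTK1 is thus uncertain, and the call of the brightest ended in all 9 refits without 1 array (adjusted p up to 0.13). GSTO1, an omega-class enzyme that reduces dehydroascorbate, stood at -0.45 ± 0.22 at 24 h (adjusted p = 0.26, 0.0083 with the block).

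Beyond single arrays, other settings ended calls at 24 h. With arrays centred on their median CAT and GSTK1 were not called (adjusted p = 0.078 and 0.064). Fitted to the 6 arrays compared, SOD2, GPX1 and PRDX1 were the called members that stayed called, and the other 6 had adjusted p between 0.071 and 0.10. Without the 3 arrays numbered 3 the same 3 members kept their calls, and the other 6 had adjusted p between 0.063 and 0.11. Without the trend of the variance prior CAT, GLRX2, GSTM3, PRDX1 and TXNDC17 were not called (adjusted p = 0.051 to 0.066), and without the low-value filter GLRX2, GSTK1 and GSTM3 were not (0.055 to 0.057). GSTM3 also lost its call with a pseudocount of 1, and GSTK1 with quantile normalization. SOD2 was called at 24 h under every setting tried.

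**Figure D2:**
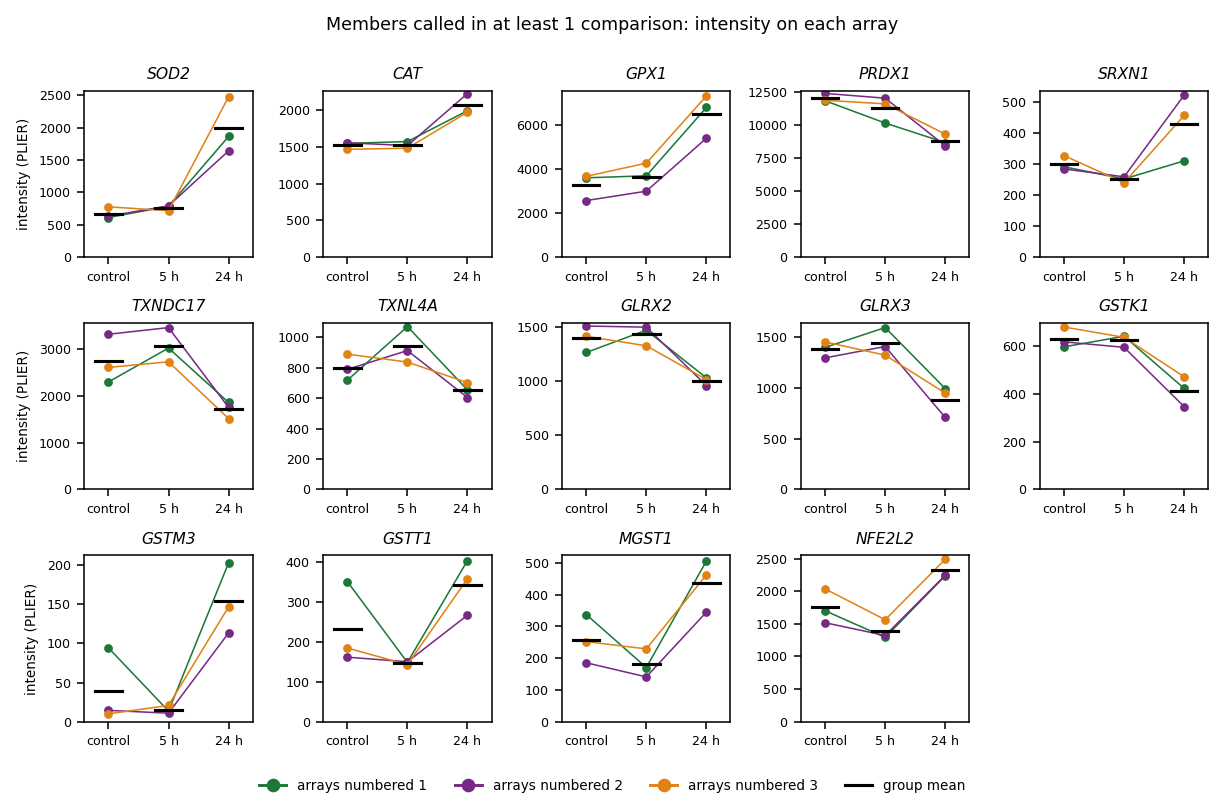
PLIER intensity (y axis, linear, from 0) in control, 5 h and 24 h of the 14 members called in at least 1 of the 3 comparisons; points are arrays, coloured and joined by replicate number, and black bars are group means of 3 arrays. SOD2, CAT, GPX1, GLRX2, GLRX3 and PRDX1 hold near control at 5 h and part from it at 24 h, while GSTM3, GSTT1 and MGST1 have a high control replicate 1.

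HMOX1, inducible haem oxygenase and a well-known NRF2 target, was the member with the most negative log2 change at both times. Its intensities were 1764, 1513 and 743 in control, 359.9, 1215 and 242 at 5 h and 469.9, 1199 and 403 at 24 h. On the arrays numbered 1 and 3 it was far lower in salt, and on number 2 only slightly. The change was -1.37 ± 0.62 at 5 h (adjusted p = 0.73, 0.025 with the block) and -1.02 ± 0.62 at 24 h (adjusted p = 0.39, 0.022 with the block). HMOX2, the constitutive form, differed by array number rather than by group, at -0.28 ± 0.54 and -0.091 ± 0.54 (adjusted p = 0.9998 and 0.97).

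NQO1, the quinone reductase that is often read as a marker of NRF2 activity, read 1209, 728 and 833 in control, 846, 638 and 834 at 5 h and 958, 913 and 862 at 24 h. Control replicate 1 was the highest, and neither change was called, at -0.23 ± 0.20 and 0.013 ± 0.20 (adjusted p = 0.9998 and 0.99). FTH1, the ferritin heavy chain, which oxidises and stores iron, read 8167, 6832 and 7504 in control, 6989, 6868 and 8064 at 5 h and 7809, 7838 and 8558 at 24 h. Its groups overlapped, at 0.11 ± 0.10 at 24 h (adjusted p = 0.59). FTL, the light chain, stood at 0.13 ± 0.10 (adjusted p = 0.55).

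NFE2L2, which encodes NRF2, had its lowest mean at 5 h and its highest at 24 h. It read 1700.2, 1516 and 2035 in control, 1292, 1321 and 1562 at 5 h and 2237, 2245 and 2489 at 24 h. The 24 h arrays lay above all controls, at 0.41 ± 0.14 (adjusted p = 0.10, 0.0042 with the block), and 5 h stood at -0.32 ± 0.14 (adjusted p = 0.66, 0.055 with the block). A second NFE2L2 probe set was near the floor, at 29.7 in control. KEAP1, the repressor, read 1419, 1354 and 693 in control, 1545, 1408 and 819.6 at 5 h and 1893, 2231 and 1121 at 24 h, with 0.60 ± 0.37 at 24 h (adjusted p = 0.39, 0.0013 with the block). Within each number KEAP1 was highest at 24 h. A second KEAP1 probe set, with closer replicates at 467 in control and 691 at 24 h, was called higher, at 0.55 (adjusted p = 0.042).

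The metallothioneins, which bind zinc and copper and take up radicals, varied more between arrays than between groups. MT2A read 1077, 1879 and 3589 in control, 1321, 2355 and 2932 at 5 h and 1067, 679 and 2932 at 24 h. Number 3 was the highest of each group, and on number 2 the 24 h value was well below the control value, with -0.58 ± 0.59 overall (adjusted p = 0.65). MT1A was dim, at 74.1, 89 and 151 in control, 45.4, 90.4 and 71.4 at 5 h and 86.2, 17.7 and 162 at 24 h. Its 24 h arrays ran from the lowest to the highest value of the gene, and neither change was called (adjusted p = 0.9998 and 0.72). Metallothionein genes are near copies of each other, so their probes may be shared.

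The methionine sulfoxide reductases, which repair oxidised methionine, were not called against control. MSRA stood at 0.0031 ± 0.18 at 24 h (adjusted p = 0.998), and the mitochondrial MSRB2 at 0.48 ± 0.32 (adjusted p = 0.45), from 65.8 ± 30.2 to 92.2 ± 13.9 (SD, n = 3).

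**Figure D3:**
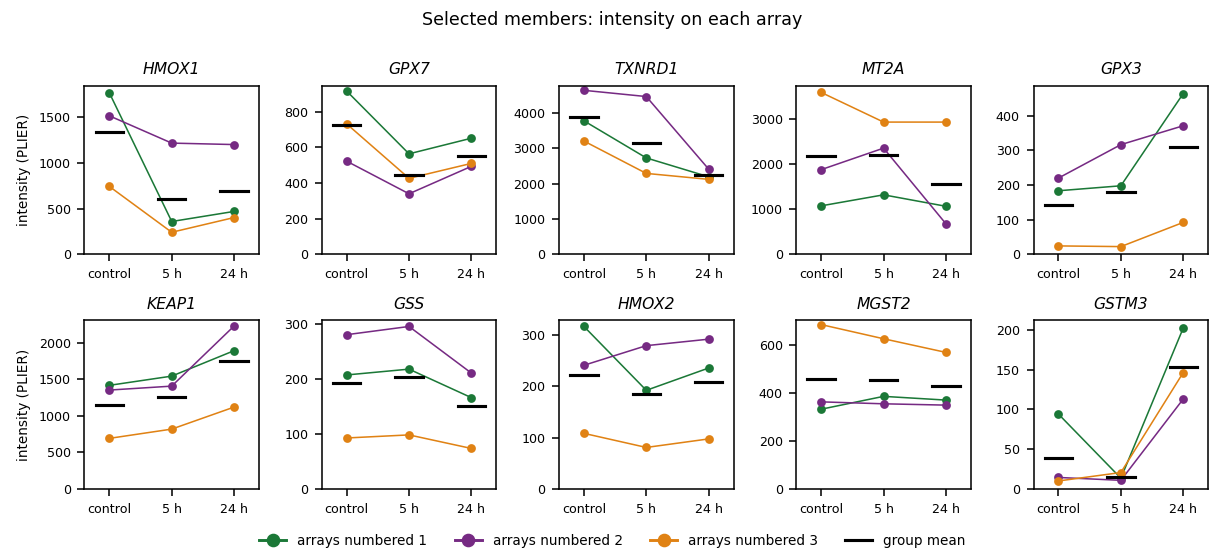
PLIER intensity (y axis, linear, from 0) of 10 members chosen after their values were seen, by group; points are arrays, coloured and joined by replicate number, and black bars are group means of 3 arrays. HMOX1 and TXNRD1 show a number 2 that differs from the others at 5 h, and GPX3, KEAP1, GSS and HMOX2 are lowest on number 3 in each group.

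Between 5 h and 24 h more members were called than against control: 8 rose and 6 fell, 14 of 55 or 25.5%, beside a background of 14.2% of all probe sets, 8.01% higher and 6.15% lower, and 17% of the brightest probe sets of all genes. The groups did not overlap upward in 14 members (background 18.1%) and downward in 7 (background 14.3%). This comparison shares the 24 h arrays with the comparison above and tests whether the change from control differed between the times. With the block 17 rose and 12 fell (background 43.8% of all probe sets, 24.2% higher and 19.6% lower, and 47.7% of the brightest), and with arrays centred on their median 4 rose and 7 fell (background 4.47% higher and 8.93% lower). That centring moved the median change of all probe sets from 0.057 to -0.096. Called higher only with the block were GPX3, GPX7, GSTA4, KEAP1, MGST3, MSRB2, PRDX4, PRDX6 and SOD3. Called lower only with it were GSR, GSS, GSTO1, TXN, TXNRD1 and TXNRD3.

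All 9 members called at 24 h against control were called here too, in the same direction. SOD2 rose by 1.34 ± 0.17 (adjusted p = 0.0039), GPX1 by 0.83 ± 0.19 (0.022), GSTM3 by 2.43 ± 0.49 (0.015) and CAT by 0.43 ± 0.10 (0.024). TXNDC17 fell by 0.84 ± 0.16 (adjusted p = 0.012), GLRX3 by 0.71 ± 0.15 (0.019), GSTK1 by 0.59 ± 0.15 (0.033), GLRX2 by 0.51 ± 0.12 (0.023) and PRDX1 by 0.35 ± 0.079 (0.022). The dimmest GSTK1 probe set was called in the opposite direction here, higher by 1.61 (adjusted p = 0.019), and the middle one stood at -0.22 (adjusted p = 0.47). SOD2 and TXNDC17 kept this call with each array left out (adjusted p at most 0.025 and 0.0498).

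The other 5 called here were NFE2L2, MGST1, GSTT1, SRXN1 and TXNL4A. In the first 4, the 5 h mean lay below control and the 24 h mean above it. NFE2L2 rose by 0.74 ± 0.14 (adjusted p = 0.012), MGST1 by 1.21 ± 0.26 (0.019), GSTT1 by 1.12 ± 0.28 (0.031) and SRXN1 by 0.71 ± 0.20 (0.045). TXNL4A, which stood above control at 5 h and below it at 24 h, fell by 0.51 ± 0.15 (adjusted p = 0.0499). With arrays centred on their median, CAT, GPX1, NFE2L2 and SRXN1 were not called between the times (adjusted p = 0.13, 0.083, 0.068 and 0.13).

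Single arrays decided several of these calls. In all, 3 members were called without 5 h replicate 1 or 2 (4.74% and 7.73% of all probe sets, beside 14.2% in the full fit) and 5 without 24 h replicate 1 (5.22%). The counts were 7 without 24 h replicate 3 (9.31%), 8 without 24 h replicate 2 (8.97%) and 9 without 5 h replicate 3 (11.1%). NFE2L2 was not called without 5 h replicate 1 (adjusted p = 0.054), and GLRX3 without 5 h replicate 1 or 2 (up to 0.082). GSTM3 was not called without 5 h replicate 1, 5 h replicate 2 or 24 h replicate 1 (up to 0.062). GPX1 and MGST1 lost their calls without 5 h replicate 1 or 2 or 24 h replicate 1 or 3 (up to 0.080 and 0.078), and PRDX1 without 5 h replicate 2 or 3 or 24 h replicate 1 or 2 (up to 0.079). For GSTT1 the arrays were 5 h replicates 1 to 3 and 24 h replicates 1 and 3 (up to 0.11), for GLRX2 5 h replicates 1 and 2 and 24 h replicates 1 to 3 (up to 0.091), and for CAT all 6 salt arrays (up to 0.073). GSTK1 lost its call without control replicate 2, any 5 h array or 24 h replicate 1 or 2 (up to 0.12), SRXN1 in 8 of 9 refits, all but that without 24 h replicate 1 (up to 0.13), and TXNL4A in all 9 (up to 0.18).

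How members varied over the 9 arrays was described by the share of the sum of squares of log2 values that went with group and with replicate number. SOD2 (94.1% by group, 2.35% by number), CAT (93.4% and 3.58%) and GLRX2 (89.6% and 1.38%) followed the group. MGST2 (0.656% by group, 95.4% by number), GSS (7.5% and 92.4%), TXNDC12 (5.56% and 91.7%) and HMOX2 (3.26% and 91%) followed the number. Number held the larger share in 28 of 55 members, 50.9%, and in 53.4% of all probe sets. In 7 members, 12.7%, every array numbered 3 lay below the other 6 arrays (GPX3, GSS, HMOX2, KEAP1, PRDX2, TXNDC11 and TXNRD2), beside 18.3% of all probe sets. In 2 members, 3.64%, they lay above (MGST2 and MT2A), beside 9.69% of all. In 27 of 55 members control replicate 1 lay beyond both other controls on the side of the 24 h arrays, 49.1% beside 43.4% of all probe sets.

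**Figure D4:**
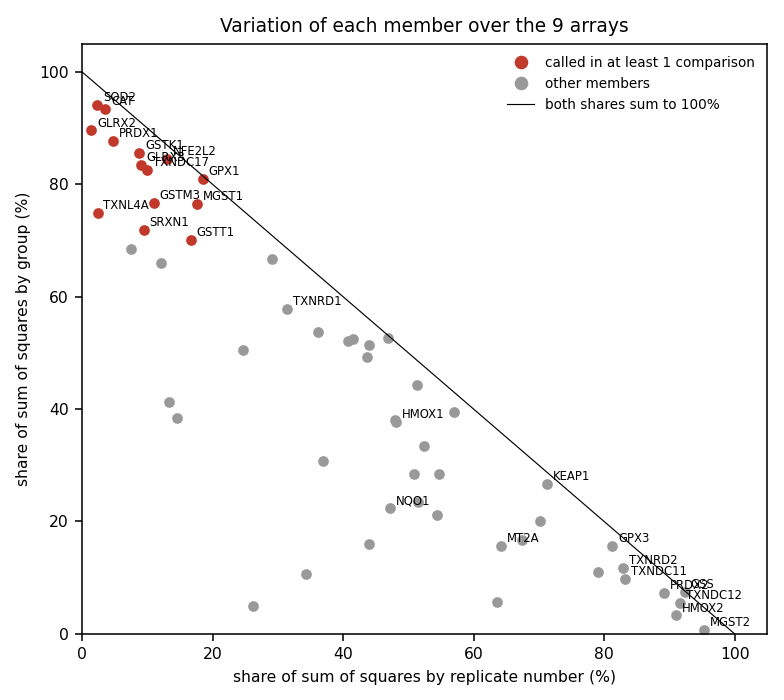
Share of the sum of squares of log2(intensity + 16) over 9 arrays by replicate number (x axis, %) and by group (y axis, %) for each of the 55 members; red points were called in at least 1 comparison, and the line marks where both shares sum to 100%. SOD2, CAT and GLRX2 lie at the upper left and MGST2, GSS and HMOX2 at the lower right.

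Genes outside the members were taken from lists of related pathways. The background for each list is the share of all probe sets called at 24 h, 4.28% higher and 4.32% lower. With the block it is 18.3% and 17.5%, and from 5 h to 24 h without the block 8.01% and 6.15%. Of 16 genes that supply NADPH, the reducing power of both the thioredoxin and glutathione cycles, 15 were tested, and at 24 h NADK2 rose while MTHFD1 and MTHFD2 fell. NADK2, the mitochondrial NAD kinase, rose by 1.51 ± 0.37 (adjusted p = 0.041), and the folate enzymes MTHFD1 and MTHFD2 fell by 1.11 ± 0.27 and 1.14 ± 0.18 (adjusted p = 0.040 and 0.0094). From 5 h to 24 h IDH1, the cytosolic isocitrate dehydrogenase, rose by 0.59 ± 0.16, and IDH2, the mitochondrial one, fell by 0.48 ± 0.12 (adjusted p = 0.042 and 0.032). With the block 3 of the list rose and 4 fell at 24 h (background 18.3% higher and 17.5% lower).

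Of 14 tested NRF2 targets outside the members, AKR1B1, aldose reductase, rose at 24 h by 1.67 ± 0.19 (adjusted p = 0.0038). UGDH, which makes UDP-glucuronate, fell by 0.80 ± 0.13 (adjusted p = 0.013). With the block 4 of these targets rose and 1 fell (background 18.3% higher and 17.5% lower). AKR1B1 is also a known osmotic stress gene. Of 6 tested NRF2 regulators outside the members, NFE2L1, a relative of NRF2, rose by 0.63 ± 0.16 and the small MAF protein MAFF by 1.22 ± 0.27 (adjusted p = 0.045 and 0.028).

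Aldehyde and quinone detoxification had the largest number of upward calls of these lists. At 24 h 4 of 18 tested rose and 0 fell (background 4.28% higher and 4.32% lower). With the block 8 rose and 0 fell (background 18.3% higher and 17.5% lower). The median of the list was 0.26 beside 0.023 over all probe sets. The medians of the other 7 lists at 24 h lay between -0.26 and 0.14. The 4 that rose included AKR1B1, which is counted among the NRF2 targets as well. The others were ALDH2, mitochondrial aldehyde dehydrogenase (0.82 ± 0.21, adjusted p = 0.049), and the sulfur transferases TST (0.91 ± 0.23, 0.046) and MPST (0.74 ± 0.16, 0.026). From 5 h to 24 h, 6 rose (background 8.01% higher), ALDH3A2 (0.71) and NQO2 (0.59) in addition.

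Of 17 tested genes of iron, copper and zinc handling, CP, the copper oxidase ceruloplasmin, rose at 24 h from 91.3 ± 11.5 to 831 ± 452 (SD, n = 3), by 2.78 ± 0.43 (adjusted p = 0.0094). With the block 2 rose and 5 fell at 24 h (background 18.3% higher and 17.5% lower). The copper importer SLC31A1 fell from 5 h to 24 h by 0.56 ± 0.13 (adjusted p = 0.027). Of 10 tested genes of glutathione use, GGT7, of the gamma-glutamyltransferase family, rose by 1.05 ± 0.25 at 24 h (adjusted p = 0.035) from a dim 36.9. OPLAH, oxoprolinase, rose from 5 h to 24 h by 0.86 ± 0.22 (adjusted p = 0.035). With the block 2 of this list rose at 24 h (background 18.3% higher).

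Of 11 tested sources of reactive oxygen none was called at 24 h by limma, and 3 rose with the block (background 18.3% higher). XDH, xanthine dehydrogenase, rose from 5 h to 24 h by 1.07 ± 0.23 (adjusted p = 0.020). Of 13 tested selenoproteins and genes of selenoprotein synthesis none was called at 24 h without the block. With it 1 rose and 6 fell (background 18.3% higher and 17.5% lower). SELENOP, the selenium carrier, rose from 5 h to 24 h by 1.20 ± 0.31 (adjusted p = 0.035). At 5 h no gene of these 8 lists was called without the block.

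Markers of other cell types were read in the same fit. The summed intensity of 8 macrophage and leukocyte markers was 252.5 to 287 in control, 276 to 289.6 at 5 h and 473 to 505 at 24 h, and CD14 alone was called, at 1.43 ± 0.19 (adjusted p = 0.0054). PTPRC, which defines leukocytes, read 14.6 in control and 26.7 at 24 h, near the floor. For 6 markers of annulus and tendon-type fibroblasts the sum was 11122 to 14775 in control, 11303 to 12604 at 5 h and 17450 to 19565 at 24 h. Of the 5 tested, COL12A1, THY1 and DCN rose (1.73, 0.74 and 0.57; background 4.28% higher). With the block 4 of them were called higher and 1 lower at 24 h (background 18.3% higher and 17.5% lower). For 6 erythroid markers it was 192 to 269.5, 226 to 293 and 194 to 273. The sums for 6 muscle, 7 endothelial and 4 adipocyte markers were 959 to 1127, 373 to 1068 and 901 to 1253 in control. At 5 h they were 1202 to 3469.9, 339.5 to 941 and 814 to 1262, and at 24 h 2193 to 3534, 489 to 1548 and 582 to 747. Without the block CKM rose at 24 h (1.99), and 0 others of these 3 lists were called. With the block 1 muscle marker of 5 tested was called higher and 1 lower at 24 h. Of 6 tested endothelial markers 3 were called higher, and of 2 tested adipocyte markers 1 was called lower. No marker had a group mean of 0. The part of cell makeup in the changes at 24 h was not tested.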

How the data were processed

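Expression was measured on 9 one-colour Affymetrix bovine arrays, 3 per group. Per the submitters' processing notes, the authors made the deposited intensities with the PLIER method of Affymetrix Expression Console; its version, its settings and any normalization between arrays are not given in the sources read. Of 24128 probe sets, 112 manufacturer controls were left out, and 13292 of the rest carry 1 gene symbol, 86 several and 10638 none in the platform annotation supplied.

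Intensities were taken as log2(value + 16) with no further normalization, the dimmest 25% of probe sets by mean log2 value were dropped, and 18012 were fitted with limma 3.58.1 in R 4.3.3 (lmFit, eBayes with trend, all 9 arrays). The code was tested on simulated data. Named members were those called in any comparison and 30 fixed by name, and from the other lists the called genes. The members and lists were chosen with earlier results of these data known. The replicate number as a block rests on the correlation of deviations, 0.56 to 0.90 in all 9 same-number pairs. The correlation was 0.31 to 0.54 between numbers 1 and 2 and -0.78 to -0.52 between number 3 and the others. The check thus sets number 3 apart more clearly than it separates numbers 1 and 2. The labels do not say what a number shares. The number of arrays limits the precision. Alternatives are given in the closing section.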

Additional observations from a re-analysis of the deposited data

Results flagged for a closer look

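The 24 h minus 5 h comparison tests whether the change from control differed between the times, and 14 members were called in the main fit. The differences on the log2 scale were positive for SOD2 (1.34), GPX1 (0.83), CAT (0.43), GSTM3 (2.43), MGST1 (1.21), GSTT1 (1.12), NFE2L2 (0.74) and SRXN1 (0.71). They were negative for PRDX1 (-0.35), GLRX2 (-0.51), GLRX3 (-0.71), GSTK1 (-0.59), TXNDC17 (-0.84) and TXNL4A (-0.51). Of these calls, only those of SOD2 and TXNDC17 held with each array left out. SRXN1 lost its call in 8 of 9 refits and TXNL4A in all 9. A dimmer GSTK1 probe set was called in the opposite direction, at 1.61 (adjusted p = 0.019).

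Manufacturer control probe sets, which no comparison above uses, include 3 for a glutathione transferase annotated as LOC327709, a gene that RefSeq lists with the synonym GSTM1. The 3-prime probe set read 343, 155.5 and 107 in control, 171, 129 and 95.9 at 5 h and 696, 508 and 250.2 at 24 h for replicates 1, 2 and 3. Mean log2 changes at 24 h were 1.24 for the 3-prime, 1.09 for the middle and 1.03 for the 5-prime probe set, with every replicate pair higher at 24 h. Control replicate 1 was the highest control on all 3 probe sets.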

How the results depend on the processing

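With the replicate block, which called 5.86%, 35.8% and 43.8% of all probe sets in the 3 comparisons, the number of members called rose from 0 to 2 at 5 h (2 lower), from 9 to 27 at 24 h (14 higher, 13 lower) and from 14 to 29 from 5 h to 24 h (17 higher, 12 lower). With 1 array left out in turn, the members called were 1 to 8 at 24 h (1 to 4 higher, 0 to 5 lower), 3 to 12 from 5 h to 24 h (1 to 7 higher, 1 to 5 lower), beside 1.69% to 8.51% and 4.74% to 13.5% of all probe sets, and 0 at 5 h, where a count at an unadjusted p under 0.05 was 3 in the full fit. The fewest came without control replicate 2 or 24 h replicate 1 at 24 h, and without 5 h replicate 1 or 2 between the times. The medians ran from -0.046 to -0.017 at 5 h, 0.0056 to 0.081 at 24 h and 0.046 to 0.11 between the times. Fitted to the 6 arrays compared, 4 were called at 24 h (2 higher, 2 lower) and 9 between the times (3 lower), beside 4.4% and 10.6% of all probe sets. Without the eBayes trend 4 were called at 24 h (2 higher, 2 lower; 8.06% of all). Without the low filter, or with the mean of all probe sets of a gene, 3 were lower at 24 h (2.76% and 4.31% of all). Without the 3 arrays numbered 3, added after seeing the data, 5 were called at 24 h (2 lower; 9.24% of all), and 5 were higher between the times (10.5% of all). With arrays centred on their median, the members' median was 0.047 at 5 h, -0.056 at 24 h and -0.059 between the times, and 4 were higher between the times (4.47% of all). GSTK1 reversed between the times with the mean of its probe sets, to 0.27, as that mean includes the probe set that pointed up. Of 3135 refits of single members, 1 reversed; 76 calls at 24 h and 82 between the times were lost, and 24 at 24 h, 18 between the times and 2 at 5 h were gained. The cause of the other shifts was not tested. Probe sets near the floor or near the top of the range can understate a change.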

Other observations

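A pair of glutathione transferase genes carry placeholder symbols in the platform annotation and so fall outside the rule; they were chosen after their values were seen. LOC281806, which RefSeq lists with the synonym GSTP1, the main pi-class transferase, rose at 24 h. Its probe set read 4429.5, 3677 and 3456 in control, 3596, 3604 and 3570.3 at 5 h and 9087, 7294 and 9334 at 24 h. The control and 5 h arrays overlapped, and every 24 h array was well above them, at 1.15 ± 0.12 (adjusted p = 0.0037), while 5 h stood at -0.094 ± 0.12 (adjusted p = 0.9998). From 5 h to 24 h the rise was 1.24 ± 0.12 (adjusted p = 0.0020).

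LOC327709, listed with the synonym GSTM1, read 273, 107 and 44 in control, 109, 88.9 and 40.8 at 5 h and 464, 407 and 129.6 at 24 h on its own probe set. Arrays numbered 3 were the lowest of each group, and within each number the 24 h value was the highest. The change at 24 h was 1.26 ± 0.63 (adjusted p = 0.28, 0.0019 with the replicate block). Relatives of the mu class may share probes, GSTM3 included.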
